A study of Mus musculus with 6 samples.

Results

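The genes described are 10 markers of macrophages and of osteoclasts, the bone-resorbing cells of the same myeloid descent. 6 mark macrophages (Adgre1, Cd68, C1qa, C1qb, Ctss and Mertk) and 4 mark osteoclasts (Acp5, Ocstamp, Oscar and Atp6v0d2). They were taken by name, through probe sets whose platform annotation gives only that gene. All 10 were measured, by 14 of the 34945 probe sets that carry a single gene, and they are 10 of 18193 genes tested. Where a gene had several, the probe set whose mean over the arrays was highest stands for it, and the others are given beside it.

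RNA came from cells sorted out of pooled fore and hind limbs of mouse litters at postnatal day 3, 3 samples in each of 2 populations, on single-colour Affymetrix Mouse 430 2.0 arrays. Cells called Tie2-positive here carried Tie2 (an angiopoietin receptor, gene Tek) and little integrin alpha V (Itgav), and lacked CD45 and the erythroid antigen Ter119, by their titles. Cells called Tie2-negative here lacked all 4 antigens. Both were wild type by 1 label, whereas the protocol speaks of GFP-labelled mice, and both were sorted against CD45, the surface antigen shared by leukocytes. The gates set surface antigens and not cell types, so each population can hold several kinds of cell. Whether samples of a population stem from different litters is not stated, and the p-values cover only the spread among these arrays, which can be technical. Values are log2 array values after quantile normalization, n = 3 arrays per population, and a change is Tie2-positive minus Tie2-negative.

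Macrophages take up dead cells and debris, and in the marrow they surround the red-cell precursors whose expelled nuclei they remove. Osteoclasts form when myeloid precursors that receive the cytokines CSF1 and RANK ligand fuse into large cells, which then acidify the bone surface and digest it. Macrophages and the precursors of osteoclasts carry CD45, so a sort against that antigen is meant to remove them. Several of the markers are also made by other cells: Ctss by B cells and other antigen-presenting cells, Mertk by some cells outside the blood lineage.

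The sort antigens and other cell types' genes differed between arrays. Tek was higher by 6.07 ± 0.53 (SE), which checks the gate and is no finding. It gave 12.06, 10.86 and 9.80 in Tie2-positive replicates 1 to 3, against 4.79 to 4.90 in the Tie2-negative arrays. Itgav, the other antigen of the gate, was higher by 1.76 ± 0.26 (SE). Ptprc, the gene of CD45, gave 4.86, 9.95 and 11.23 in Tie2-positive replicates 1, 2 and 3, against 9.52, 10.41 and 9.42 in Tie2-negative replicates 1, 2 and 3. Its transcript was thus lowest in Tie2-positive replicate 1 and higher in the other 5 arrays. The median of 11 neutrophil genes was 5.82, 11.74 and 13.34 in Tie2-positive replicates 1 to 3, against 6.12, 7.58 and 8.33 in Tie2-negative replicates 1 to 3. Correlations over all genes ran from 0.898 to 0.980 within the Tie2-positive population and from 0.969 to 0.983 within the Tie2-negative population. For bulk samples such as these, fewer cells of a type and less RNA per cell cannot be told apart.

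1 of the 10 markers passed the test. Acp5 fell in the Tie2-positive population, and none rose. At the same threshold (limma, adjusted p under 0.05 over 18193 genes) 7.39% of all genes passed, 4.86% higher and 2.53% lower in the Tie2-positive population, so 1 call among 10 genes is near the share called among all genes. At an unadjusted p under 0.05 limma gave 4 of the 10, with 1 of them (Mertk) higher, beside 28.6% of all genes. The median log2 change of the 10 markers was -0.15, beside -0.11 over all genes. The populations did not overlap for 3 of the 10 markers (Acp5, Mertk and Atp6v0d2), beside 39.1% of all genes. Over the 6 arrays the values of 6 of the 10 markers spanned at least 1 on the log2 scale, as did 40.8% of all genes. The markers that spanned most were Ctss (5.90), Acp5 (5.65), Cd68 (2.39), Adgre1 (1.87) and Mertk (1.78).

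**Figure D1:**
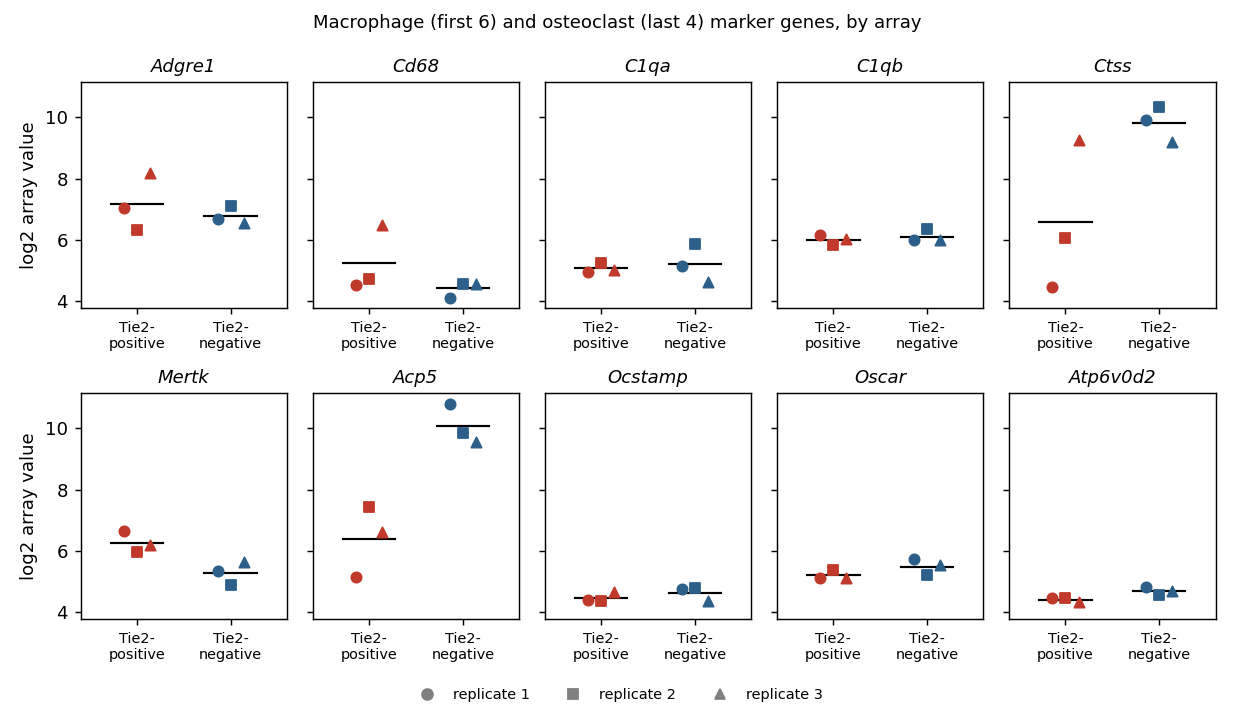
Log2 array value of each marker gene in each of the 6 arrays, with Tie2-positive arrays on the left (red) and Tie2-negative arrays on the right (blue) of each panel. Symbols give the replicate number and bars the population mean; Acp5 is lower in all 3 Tie2-positive arrays, Ctss spans 4.45 to 9.26 among them, and Cd68 and Adgre1 are highest in Tie2-positive replicate 3.

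**Figure D2:**
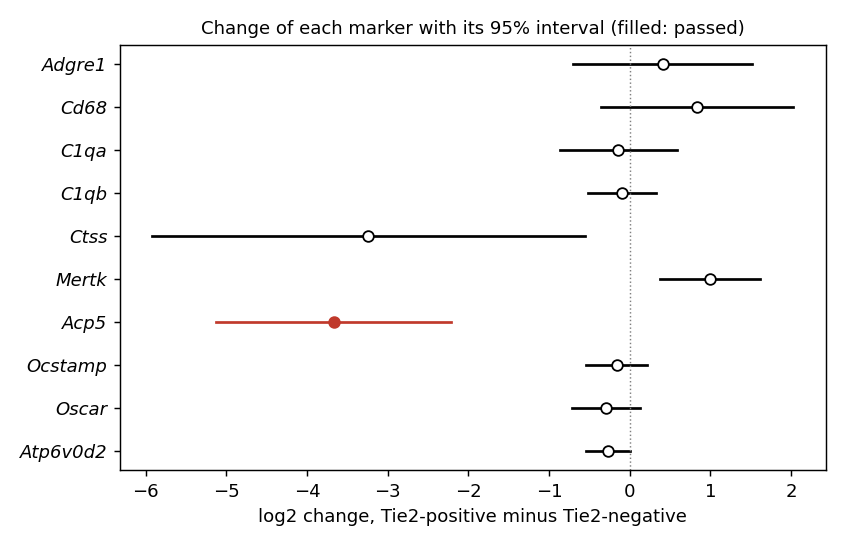
Log2 change of each marker, Tie2-positive minus Tie2-negative, as a point with its 95% interval from limma (n = 3 arrays per population). The filled point is Acp5 at -3.67, the marker that passed over all genes. The intervals of Mertk and Ctss also leave out 0, without passing after adjustment. The interval of Atp6v0d2 runs from -0.54 to a bound that rounds to 0 (limma unadjusted p = 0.0498), also without passing.

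Acp5 encodes tartrate-resistant acid phosphatase, the enzyme by which osteoclasts are stained in bone. Its single probe set gave 5.16, 7.42 and 6.61 in Tie2-positive replicates 1, 2 and 3, against 10.81, 9.85 and 9.55 in Tie2-negative replicates 1, 2 and 3. All 3 Tie2-positive arrays lay below all 3 Tie2-negative arrays, as they did for 23.9% of all genes. The means were 6.40 ± 1.15 in the Tie2-positive and 10.07 ± 0.66 in the Tie2-negative population (SD, n = 3 each). Acp5 thus fell by 3.67 ± 0.61 (SE) on the log2 scale, with a 95% interval from -5.13 to -2.21 (limma adjusted p = 0.0218). This is 12.7-fold lower on the array scale, and the deposited values carry no detection calls that would say whether the lower population lay above background. The call was lost without any 1 of the Tie2-negative arrays, with adjusted p of 0.0977, 0.0907 and 0.0602 without replicates 1, 2 and 3, while the change stayed between -3.93 and -3.30 in those 3 fits. Without Tie2-positive replicates 2 and 3, the arrays with high neutrophil transcripts, only 1 Tie2-positive array was left. Acp5 was lower there by 4.91 on the log2 scale.

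Red-cell and early B-cell genes differed between the populations in the same direction as Acp5. The median of 10 erythroid genes was 5.92, 7.77 and 5.46 in Tie2-positive replicates 1 to 3, against 12.44, 10.63 and 10.32 in Tie2-negative replicates 1 to 3. Of those 10 genes 5 fell and none rose, beside 2.53% lower and 4.86% higher among all genes. For 9 of the 10 all Tie2-positive arrays lay below all Tie2-negative arrays, beside 23.9% of all genes. The median of 9 early B-cell genes lay between 5.40 and 5.74 in the Tie2-positive and between 7.67 and 10.15 in the Tie2-negative arrays. Of the 9 genes 6 fell, again beside 2.53% of all genes. The summed level of the erythroid list ran from 9.96 to 12.79 in the Tie2-positive and from 14.58 to 15.92 in the Tie2-negative arrays on the log2 scale. The part of these cells in the values of Acp5 was not tested.

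The genes whose values ran most like those of Acp5 over the 6 arrays were Tmem14c, a mitochondrial membrane protein needed for haem synthesis (Pearson's r = 0.996), and Tlcd1 (r = 0.994). Of 1838 genes with a standard deviation of at least 1 over the arrays, 115 reached an r of at least 0.95 with Acp5. Tmem14c gave 9.75, 10.63 and 10.25 in Tie2-positive replicates 1 to 3, against 12.41, 11.96 and 11.89 in Tie2-negative replicates 1 to 3. These correlations are descriptions over 6 arrays that share 2 populations.

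The RefSeq table (GRCm38.p6) held 3 starts of Acp5. The sequence before the start that lies farthest along the gene is shown because it is the only 1 of the 3 with a match to the motifs searched, and because Acp5 is the marker that passed. The sequences before the starts of Ctss, the other marker with a large difference, and of Oscar, an osteoclast marker with little difference, are set beside it. Each line gives the 250 bases before the start, on the gene's own strand, with matches in capitals.
Acp5, chr9:22130599-22130848, minus strand: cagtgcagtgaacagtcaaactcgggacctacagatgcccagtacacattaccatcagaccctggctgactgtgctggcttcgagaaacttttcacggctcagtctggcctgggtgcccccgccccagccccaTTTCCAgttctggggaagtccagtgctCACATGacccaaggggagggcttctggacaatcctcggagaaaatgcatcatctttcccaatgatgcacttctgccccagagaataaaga
Ctss, chr3:95526536-95526785, plus strand: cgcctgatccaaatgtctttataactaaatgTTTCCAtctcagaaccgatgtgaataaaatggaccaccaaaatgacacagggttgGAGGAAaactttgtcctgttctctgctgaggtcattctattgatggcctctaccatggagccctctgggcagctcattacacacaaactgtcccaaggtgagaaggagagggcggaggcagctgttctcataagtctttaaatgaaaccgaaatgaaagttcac
Oscar, chr7:3616158-3616407, minus strand: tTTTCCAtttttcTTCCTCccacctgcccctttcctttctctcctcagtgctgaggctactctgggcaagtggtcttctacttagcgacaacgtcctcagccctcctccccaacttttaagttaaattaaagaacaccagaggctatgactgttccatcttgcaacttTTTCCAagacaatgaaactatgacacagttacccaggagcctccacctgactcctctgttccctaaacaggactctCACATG
The motifs were the core of the myeloid factor PU.1 (GAGGAA), the core of the osteoclast factor NFATc1 and its relatives (TGGAAA), the AP-1 site (TGANTCA) and an E-box of the kind bound by MITF (CATGTG), each on both strands, and 0 of the matches overlapped another. Acp5 held an NFAT core beginning 117 bases and an E-box beginning 90 bases before this start. Ctss held a PU.1 core at 164 and an NFAT core at 219 bases, and Oscar held a PU.1 core at 237, NFAT cores at 249 and 82, and an E-box at 6 bases before the start. Among 32851 windows of the same length before gene starts, 23.3% held the PU.1 core, 18.6% the NFAT core, 6.75% the AP-1 site and 12.3% the E-box. Of the 8 windows of 6 markers in the table, 4 held the PU.1 core, 3 the NFAT core, 1 the AP-1 site (Cd68, with 2 matches) and 3 the E-box. Oscar, like Acp5, held matches to the NFAT core and the E-box. Whether these matches bear on the array values of either gene was not tested. A match of letters is a description and shows no binding.

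The other 3 osteoclast markers varied little over the arrays. Ocstamp, a membrane protein needed for the fusion of osteoclast precursors, gave 4.39, 4.36 and 4.66 in Tie2-positive replicates 1 to 3, against 4.74, 4.80 and 4.35 in Tie2-negative replicates 1 to 3. The populations overlapped, and the change was -0.16 ± 0.16 (SE), with a 95% interval from -0.54 to 0.22 (limma adjusted p = 0.531). Oscar, a receptor that signals through the Fc receptor gamma chain, gave 5.10, 5.38 and 5.11 in Tie2-positive replicates 1 to 3, against 5.73, 5.20 and 5.54 in Tie2-negative replicates 1 to 3. Its change was -0.29 ± 0.18 (SE; 95% interval -0.72 to 0.13; limma adjusted p = 0.313), again with overlap. The second probe set of Oscar gave a change of -0.28. Atp6v0d2, a subunit of the proton pump that is also needed for precursor fusion, gave 4.46, 4.45 and 4.32 in Tie2-positive replicates 1 to 3, against 4.82, 4.55 and 4.68 in Tie2-negative replicates 1 to 3. These did not overlap, yet the change of -0.27 ± 0.11 (SE; limma adjusted p = 0.174) did not pass, and a second probe set gave 0.00. The values of these 3 genes lay low on the array scale, with highest values of 4.80 for Ocstamp, 5.73 for Oscar and 4.82 for Atp6v0d2 that exceeded 19.4%, 36.5% and 19.7% of all gene values. Without detection calls, whether a lower level could have been measured for them is unknown.

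Ctss, encoding cathepsin S, a lysosomal protease that trims the invariant chain of class II antigen presentation, differed widely among the Tie2-positive arrays. It gave 4.45, 6.05 and 9.26 in Tie2-positive replicates 1, 2 and 3, against 9.93, 10.35 and 9.19 in Tie2-negative replicates 1, 2 and 3. Tie2-positive replicate 3 lay just above Tie2-negative replicate 3, and the other 2 Tie2-positive arrays lay below all 3 Tie2-negative arrays. The means were 6.59 ± 2.45 in the Tie2-positive and 9.82 ± 0.59 in the Tie2-negative population (SD, n = 3 each). The change of -3.24 ± 1.13 (SE; 95% interval -5.92 to -0.55) did not pass (limma adjusted p = 0.124). It was past the threshold without Tie2-positive replicate 3 (-4.57, limma adjusted p = 0.0124) and with array weights (-3.50, 0.0188). Without Tie2-positive replicates 2 and 3, which left 1 Tie2-positive array, the change was -5.37. The early B-cell list was low in all 3 Tie2-positive arrays, while the neutrophil list and Ptprc were both highest in Tie2-positive replicate 3. Their part in the values of Ctss was not tested. Mei4 (r = 0.977) and Akna (r = 0.966) ran most like Ctss over the 6 arrays, among 7 of 1838 genes with an r of at least 0.95.

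Cd68 and Adgre1 were each highest in Tie2-positive replicate 3. Cd68, a glycoprotein of macrophage lysosomes, gave 4.54, 4.72 and 6.49 in Tie2-positive replicates 1 to 3, against 4.11, 4.57 and 4.56 in Tie2-negative replicates 1 to 3. Adgre1, an adhesion receptor by whose antigen mouse macrophages are commonly stained, gave 7.04, 6.31 and 8.19 in Tie2-positive replicates 1 to 3, against 6.67, 7.10 and 6.54 in Tie2-negative replicates 1 to 3. Apart from the Tie2-positive replicate 3 value, each gene's 2 populations overlapped. The change of Cd68 was 0.84 ± 0.50 (SE; 95% interval -0.35 to 2.03; limma adjusted p = 0.303) and that of Adgre1 was 0.41 ± 0.47 (SE; 95% interval -0.70 to 1.52; limma adjusted p = 0.579). Without Tie2-positive replicate 3 the change of Adgre1 was -0.09, so its direction rested on that array. The neutrophil median was 13.34 in that array. The summed level of the neutrophil list was 16.75 there, against 9.37 to 15.16 in the other Tie2-positive arrays and 9.82 to 12.33 in the Tie2-negative arrays. In Tie2-positive replicate 2 the neutrophil median was also high, at 11.74, while Cd68 was 4.72 and Adgre1, at 6.31, was lowest of all arrays. The part of neutrophils in these 2 genes was not tested. The genes nearest to Cd68 were Wfdc21 (r = 0.980) and Ear3 (r = 0.979), and those nearest to Adgre1 were Itgb2l (r = 0.905) and Slfn4 (r = 0.886), each highest in Tie2-positive replicate 3.

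**Figure D3:**
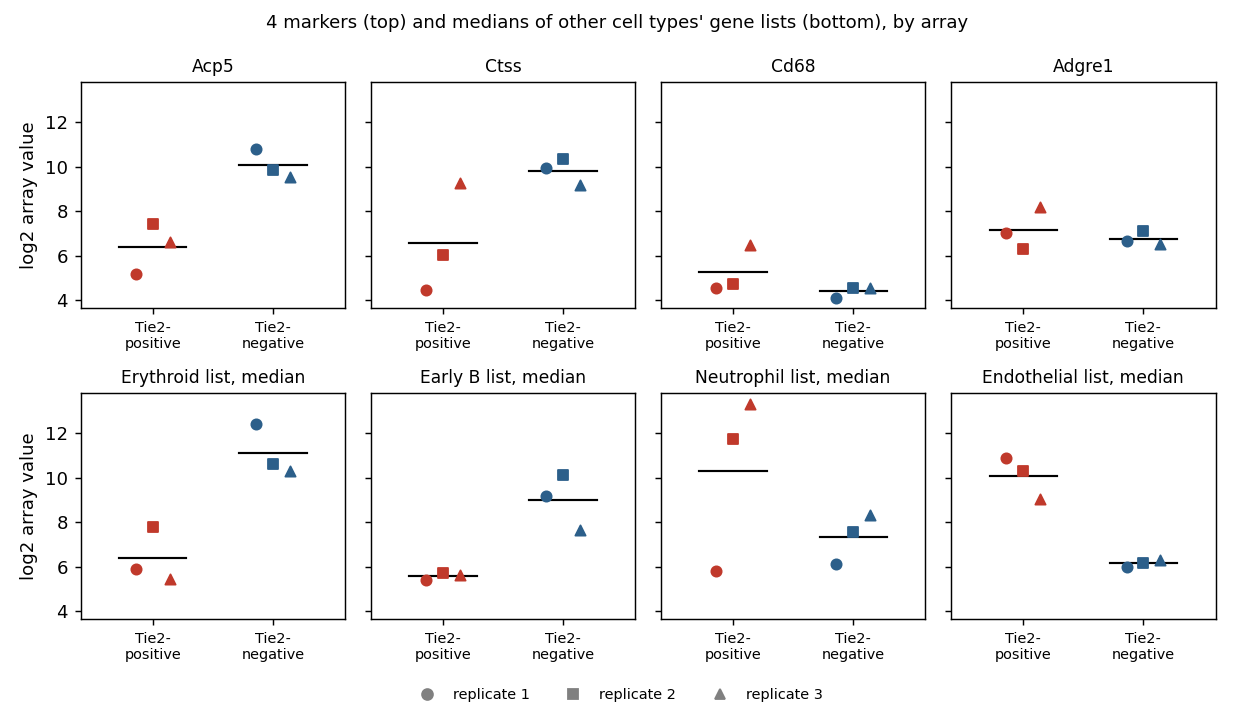
Log2 array values of Acp5, Ctss, Cd68 and Adgre1 (top) and the median log2 values of the erythroid, early B-cell, neutrophil and endothelial gene lists (bottom) in each array, Tie2-positive on the left and Tie2-negative on the right. Symbols give replicate numbers and bars the population means; the erythroid median is between 5.46 and 7.77 in Tie2-positive and between 10.32 and 12.44 in Tie2-negative arrays, and the neutrophil median is highest, at 13.34, in Tie2-positive replicate 3.

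C1qa and C1qb encode 2 of the chains of complement C1q, which tissue macrophages secrete. C1qa gave 4.94, 5.26 and 5.01 in Tie2-positive replicates 1 to 3, against 5.14, 5.86 and 4.62 in Tie2-negative replicates 1 to 3. C1qb gave 6.16, 5.83 and 6.03 in Tie2-positive replicates 1 to 3, against 5.98, 6.34 and 5.98 in Tie2-negative replicates 1 to 3. Both genes were highest in Tie2-negative replicate 2, and the populations overlapped in each. The changes were -0.14 ± 0.31 for C1qa (SE; 95% interval -0.86 to 0.59; limma adjusted p = 0.783) and -0.10 ± 0.18 for C1qb (SE; 95% interval -0.52 to 0.33; limma adjusted p = 0.738). By its suffix, the C1qb probe set used may also bind other transcripts. The other C1qb probe sets gave changes of 0.12 and -0.13, so the 3 probe sets did not share a direction. Unlike Cd68 and Adgre1, neither C1q gene was highest in Tie2-positive replicate 3.

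Mertk, a receptor kinase by which macrophages bind and engulf dying cells, gave 6.66, 5.97 and 6.18 in Tie2-positive replicates 1 to 3, against 5.33, 4.88 and 5.63 in Tie2-negative replicates 1 to 3. All 3 Tie2-positive arrays lay above all 3 Tie2-negative arrays, as they did for 15.2% of all genes. The means were 6.27 ± 0.35 in the Tie2-positive and 5.28 ± 0.38 in the Tie2-negative population (SD, n = 3 each). The change of 0.99 ± 0.26 (SE; 95% interval 0.37 to 1.61) did not pass over all genes (limma adjusted p = 0.0684). With array weights (0.81, limma adjusted p = 0.0273) it was past the threshold. Without Tie2-positive replicates 2 and 3, which left 1 Tie2-positive array, the change was 1.38. The median of 12 endothelial genes was 10.91, 10.31 and 9.04 in Tie2-positive replicates 1 to 3, against 6.00 to 6.29 in the Tie2-negative arrays. Of those 12 genes 9 rose, beside 4.86% of all genes. The part of endothelial cells in the values of Mertk was not tested. Pdia5 (r = 0.987) and Slc31a2 (r = 0.980) ran most like Mertk, among 69 of 1839 genes with an r of at least 0.95.

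**Figure D4:**
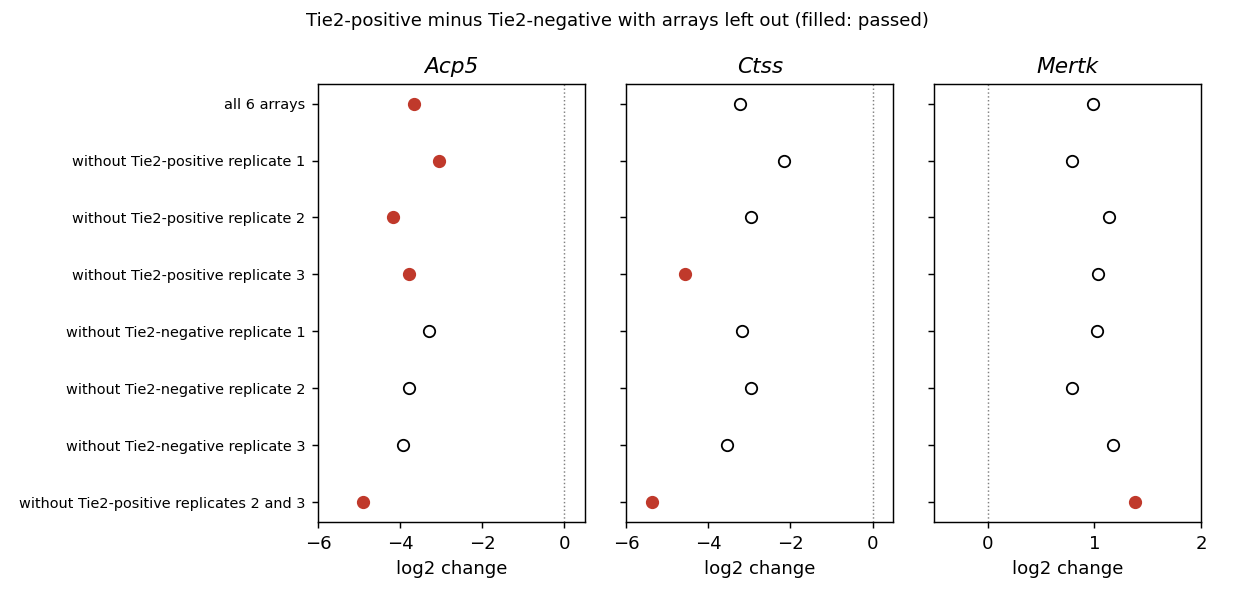
Log2 change, Tie2-positive minus Tie2-negative, of Acp5, Ctss and Mertk over all 6 arrays (top) and with the named arrays left out (below), filled where limma's adjusted p over all genes was under 0.05. Acp5 lies between -4.91 and -3.05 throughout, Ctss between -5.37 and -2.17 and Mertk between 0.79 and 1.38. Acp5 loses its call without any 1 of the Tie2-negative arrays. Mertk is filled only without Tie2-positive replicates 2 and 3, a fit with a lone Tie2-positive array whose spread is assumed.

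Of 29 other macrophage genes measured, 4 rose, 1 fell and 24 did not pass, with a median change of 0.04, beside 4.86% higher and 2.53% lower among all genes and a median of -0.11. Mrc1, the mannose receptor, gave 11.00, 10.35 and 7.73 in Tie2-positive replicates 1 to 3, against 5.03, 4.57 and 4.81 in Tie2-negative replicates 1 to 3, a rise of 4.89 ± 0.79 (SE; limma adjusted p = 0.0205). The transcription factor gene Maf rose by 3.16 ± 0.68 (SE; 0.0427), and Ctsl, the gene of cathepsin L, rose by 2.23 ± 0.47 (SE; 0.0391). Averaged over its probe sets, the change of Maf was 1.28 and did not pass (limma adjusted p = 0.0612), and that of Ctsl was 1.42. Axl, a receptor kinase related to Mertk and named after its values were seen, rose by 1.80 ± 0.29 (SE; 0.0201), and its average over probe sets was 0.95. Mrc1 and Maf are also known from sinusoidal endothelium. For both, the level was highest in Tie2-positive replicate 1 and lowest among the Tie2-positive arrays in replicate 3, as was the endothelial median, whose part was not tested.

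Slc40a1, the iron exporter ferroportin of macrophages and red-cell precursors, was the macrophage-list gene that fell. It gave 9.02, 8.74 and 8.83 in Tie2-positive replicates 1 to 3, against 10.58, 10.35 and 10.28 in Tie2-negative replicates 1 to 3, a change of -1.54 ± 0.20 (SE; limma adjusted p = 0.0127). Of the 29 genes, 4 rose and 1 fell over all 6 arrays. In the fits lacking either Tie2-positive replicate 2 or else Tie2-negative replicate 3, none rose and 1 fell, and none passed without Tie2-negative replicate 1 or 2. Without Tie2-positive replicate 1, and likewise without Tie2-positive replicate 3, 6 rose and 1 fell.

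Of 20 other osteoclast genes, 3 rose, 0 fell and 17 did not pass, with a median change of -0.01, again beside 4.86% higher and 2.53% lower among all genes. At an unadjusted p under 0.05 in limma, 6 were higher and 4 lower, beside 28.6% of all genes in either direction. Jdp2, an AP-1 repressor, rose by 2.58 ± 0.34 (SE; limma adjusted p = 0.0132), with 8.48, 7.28 and 8.27 in Tie2-positive replicates 1 to 3, against 5.48, 5.66 and 5.16 in Tie2-negative replicates 1 to 3. Itgb3, the integrin chain that pairs with alpha V on osteoclasts and is also found on platelets, rose by 2.84 ± 0.65 (SE; 0.0482). The anion exchanger gene Slc4a2 rose by 1.10 ± 0.25 (SE; 0.0481). Itgb3 was highest in Tie2-positive replicate 2, at 9.45, where the median of 6 megakaryocyte genes was also highest, at 9.05, against 6.47 and 7.72 in Tie2-positive replicates 1 and 3 and 5.93 to 6.02 in the Tie2-negative arrays. Whether megakaryocytes had a part in the values of Itgb3 was not tested. Averaged over probe sets, the change of Itgb3 was 1.42 and did not pass (limma adjusted p = 0.0704), and that of Jdp2 was 1.10. Ctsk, the collagen-digesting protease of osteoclasts, was named after its values were seen and gave a change of -0.01 ± 0.21 (SE, limma adjusted p = 0.974). It does not stand for the list. Car2 and Tcirg1, named in the same way, changed by -3.45 ± 0.92 (SE, limma adjusted p = 0.0703) and 1.13 ± 0.26 (SE, 0.051). Neither passed, though the populations did not overlap in either gene. Without Tie2-positive replicate 2 or 3 the count was 1 gene in each case, without any 1 of the Tie2-negative arrays 0, and without Tie2-positive replicate 1 it was 6 (4 higher, 2 lower).

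CSF1 and RANK signalling forms both cell types. Of 20 measured genes of these pathways, 1 rose, 1 fell and 18 did not pass, near the 7.39% called among all genes, with a median change of 0.12. Fos, an AP-1 subunit that osteoclast formation needs, rose by 2.95 ± 0.67 (SE; limma adjusted p = 0.0473), with 11.46, 10.21 and 12.37 in Tie2-positive replicates 1 to 3, against 7.92, 7.75 and 9.52 in Tie2-negative replicates 1 to 3. Il34, a ligand of the CSF1 receptor, fell by 0.63 ± 0.11 (SE; limma adjusted p = 0.0262). It gave 4.19, 4.42 and 4.39 in Tie2-positive replicates 1 to 3, against 5.01, 4.98 and 4.90 in Tie2-negative replicates 1 to 3. These values lay low on the array scale, and without detection calls it is unknown whether they lay above background. Csf1r, the CSF1 receptor itself, was named after its values were seen and gave 6.88, 7.33 and 9.61 in Tie2-positive replicates 1 to 3, against 6.90, 7.47 and 7.36 in Tie2-negative replicates 1 to 3. It was highest in Tie2-positive replicate 3, like Cd68 and Adgre1, and did not pass (0.69 ± 0.68, SE; limma adjusted p = 0.519). Neither Fos nor Il34 passed without Tie2-positive replicate 2 or 3 or without any 1 of the Tie2-negative arrays, where the count was 0, and without Tie2-positive replicate 1 it was 5 (4 higher, 1 lower).

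Among 16 subunits and accessory genes of the proton pump, to which Atp6v0d2 belongs, 0 rose or fell in limma at an adjusted p under 0.05. Their median change was 0.07, and 3 had an unadjusted p under 0.05 in limma, beside 28.6% of all genes. Atp6ap2 (-0.10 ± 0.23, SE) and Atp6v1g1 (0.17 ± 0.17, SE) were the 2 with the highest means. Of the 3 with an unadjusted limma p under 0.05, 2 were higher and 1 lower. Among them was Tcirg1, also in the osteoclast list and named after its values were seen. It gave 1.13 ± 0.26 (SE) without overlap of the populations, and narrowly did not pass (limma adjusted p = 0.051).

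**Figure D5:**
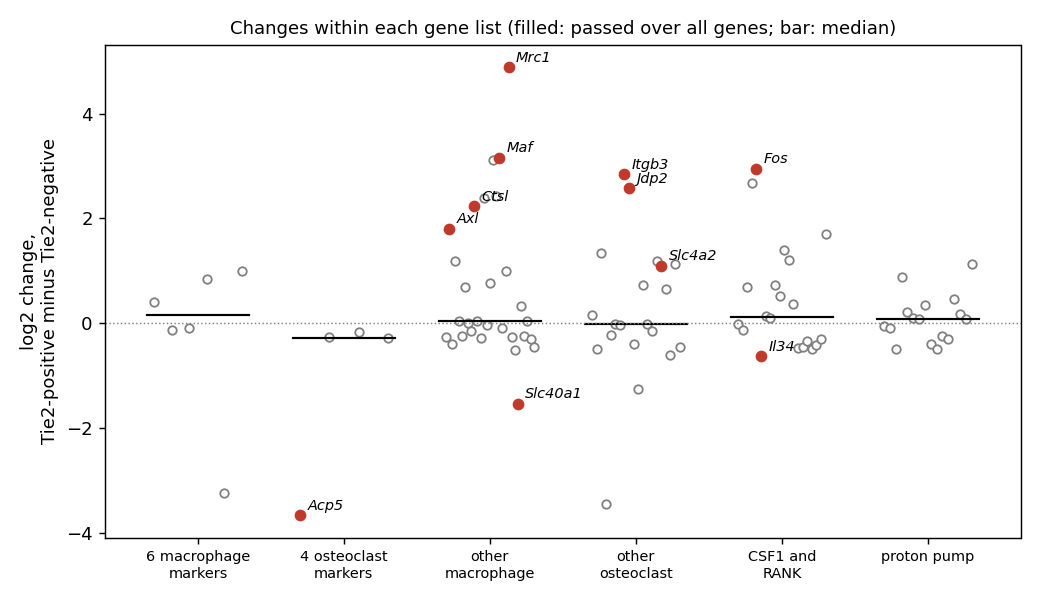
Log2 change of every measured gene of 6 sets (the macrophage markers, the osteoclast markers, the other macrophage genes, the other osteoclast genes, the CSF1 and RANK genes and the proton pump genes), Tie2-positive minus Tie2-negative (points, filled where limma's adjusted p over all genes was under 0.05), with each set's median as a bar. The medians of these 6 sets lie between -0.28 for the 4 osteoclast markers and 0.16 for the 6 macrophage markers, and the filled points are Acp5 among the markers and 10 genes of the other 4 sets.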

How the data were processed

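RNA of the 6 sorted samples was amplified in 2 rounds and hybridised to Affymetrix Mouse 430 2.0 arrays, per the labels' protocols. The authors deposited 1 log2 value per probe set and array. The log2 scale was inferred from their range, and their summary and normalization are not given in the sources used here. Precision is limited by the small number of arrays.

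The 75th percentiles of the arrays differed by up to 0.27 (limit 0.1), from 7.45 to 7.53 in the Tie2-positive and from 7.26 to 7.33 in the Tie2-negative arrays, so the values were quantile normalized. Of 45037 probe sets without controls, 34945 carried a single gene in the platform annotation, 932 several and 9160 none. Each of 18193 genes was tested with limma 3.58.1 in R 4.3.3 (lmFit, eBayes with a mean trend, two-sided, Benjamini-Hochberg over all genes, threshold 0.05), and the procedure was tested on simulated data. It recovered 35.2%, 71.2% and 86% of planted changes of 1, 2 and 3 on the log2 scale, and 4.63% of its calls were false. Each of 5 draws planted 200 changes among 18193 genes, whereas 28.6% of genes in the data had an unadjusted limma p under 0.05. The rates are those of the simulated setting. A gene that did not pass can thus still differ.

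The markers and the 14 gene lists (162 of 178 entries measured) were chosen with earlier results of these data known. Beside the markers, the rule named up to 3 called genes per direction and list, or the 2 with the highest mean, and for each marker the 2 genes with the highest Pearson's r. Of 79 genes in the 4 other tested lists, 6 are in more than 1. Replicate numbers were not used as pairs: over all genes, deviations of same-numbered arrays from their population means correlated at 0.14, 0.005 and 0.186. Differently numbered arrays gave -0.162 to 0.055, and the neutrophil median rose from replicate 1 to replicate 3 in both populations. A shared factor behind the numbers was not tested. The alternatives were other scalings, probe set choices and variance models, a filter, the replicate block and left-out arrays. A fit without Tie2-positive replicates 2 and 3 was chosen after seeing the data, and the lone Tie2-positive array is then assumed to vary like the other population.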

Additional observations from a re-analysis of the deposited data

How the results depend on the processing

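Over 17 alternatives, 149 of 164 changes of single markers kept their direction and their side of the threshold. Acp5 stayed lower in all 17 (changes from -4.91 to -2.68) and passed in 13. Signs turned for Adgre1 (-0.27 with array weights, and from -0.09 to 0.84 with 1 array left out), for C1qa (-0.43 to 0.19 with 1 array left out) and for C1qb (0.12 once x_at and s_at probe sets were dropped, -0.17 to 0.02 with 1 array left out, 0.06 without Tie2-positive replicates 2 and 3), none of them past the threshold. A replicate block left 0 genes past the limma threshold (lowest adjusted p 0.0521; 5080 had an unadjusted p under 0.05), and so 0 markers and 0 genes of each other list, with Acp5 at an adjusted p of 0.0725. With array weights it called 4639 genes, 3 markers (1 higher, 2 lower), 9 other macrophage, 10 other osteoclast and 6 signalling genes. Without Tie2-positive replicates 2 and 3 these counts were 3637, 3, 7, 7 and 5. With all 45037 probe sets tested, 2246 were called, with 1 other osteoclast and 1 signalling gene. Robust estimation left 1 other osteoclast gene, and no mean trend left 1 signalling gene. Leaving out 1 array at a time gave 0 to 2148 genes, 0 to 2 markers, 0 to 7 other macrophage, 0 to 6 other osteoclast and 0 to 5 signalling genes, against 1345, 1, 5, 3 and 2 over all arrays. The 2 markers were Acp5 and Ctss, without Tie2-positive replicate 3. The fits that left 0 genes were those without Tie2-negative replicate 1 (lowest adjusted p 0.0518; 4012 had an unadjusted p under 0.05) and replicate 2 (0.0607; 3980). The causes were not tested. Quantile normalization as an alternative was the main setting. Genes below the filter had no value there.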

Other observations

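Lists of other myeloid and skeletal cells gave further values by array. The median of 6 mast cell and basophil genes was 4.99, 8.86 and 10.40 in Tie2-positive replicates 1 to 3, against 4.99, 5.19 and 5.60 in Tie2-negative replicates 1 to 3, and 0 of the 6 genes passed in limma (1 at an unadjusted p under 0.05). The 2 Tie2-positive arrays with high values of this list are those with high values of the neutrophil list, of whose 11 genes 0 passed (0 at an unadjusted p under 0.05). Of 6 megakaryocyte genes 1 rose and 0 fell, beside 4.86% higher and 2.53% lower among all genes. The median of 7 dendritic cell genes lay between 5.83 and 6.00 in the Tie2-positive and between 5.65 and 6.34 in the Tie2-negative arrays, with 0 genes past the threshold (0 at an unadjusted p under 0.05). Of 6 osteoblast genes 1 fell and 0 rose, beside the same shares of all genes. Their median lay between 4.56 and 6.09 in the Tie2-positive and between 5.09 and 5.42 in the Tie2-negative arrays.

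For the markers that varied least, the genes with the most similar values over the 6 arrays were Chac2 (r = 0.967) and M1ap (0.964) for Atp6v0d2, M1ap (0.901) and Tspo2 (0.894) for Oscar, and Cyp4f18 (0.934) and Tnfrsf19 (0.906) for Ocstamp. For C1qa they were Gdpd3 (0.756) and Dntt (0.755), and for C1qb Bach2 (0.801) and Myl4 (0.786). For each marker these are the 2 highest of 1839 correlations over 6 arrays, given as a description. Tspo2, which gave 5.69, 8.03 and 6.35 in Tie2-positive replicates 1 to 3 and 10.60, 8.70 and 9.03 in Tie2-negative replicates 1 to 3, encodes a protein of red-cell precursors.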
